A study of Mus musculus with 4 samples.

Results

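Blood vessels of the skin are lined by endothelial cells, and 10 genes that mark these cells were followed in bleomycin-treated mouse skin: Pecam1, Cdh5, Kdr, Flt1, Tek, Tie1, Emcn, Vwf, Cldn5 and Egfl7. They were chosen by name, and all 10 are among the 24441 genes of the deposited table. The data are RNA-seq of 4 skin libraries from female C57BL/6 mice, 2 wild type (WT) and 2 GSDMD-/- (KO), with the age given as post natal week 8. All 4 libraries come from skin injected subcutaneously with bleomycin (BLM), a cytotoxic antibiotic that makes the injected skin fibrotic, every other day over 28 days, and no library of uninjected or saline-treated skin was analysed here. The KO mice carry a knockout of the gene of gasdermin D, the pore-forming protein of pyroptotic cell death, from a Cas9 edit made in fertilized eggs. The labels number the libraries of a genotype without naming the animals, so p-values measure only the spread between these samples, which may be technical. The tissue was whole skin, and endothelial cells were not sorted, so fewer endothelial cells and less RNA per endothelial cell cannot be told apart. For the 10 genes the comparison of KO with WT asks whether the vessel lining of the injected skin differs between the genotypes. In these libraries the answer hung on a single KO library: KO replicate 2 had the lowest value of all 10 genes, while KO replicate 1 lay between or above the WT libraries for each.

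The endothelium forms a barrier, held together by homophilic adhesion proteins and tight junctions, and its growth and rest are set by vascular endothelial growth factor (VEGF) and angiopoietin, which act through receptor tyrosine kinases found mainly on these cells. VEGF receptor 2 (Kdr) carries most of the growth signal and VEGF receptor 1 (Flt1) acts largely as a trap for the ligand, while Tek (Tie2) binds angiopoietins and Tie1 is its partner without a high-affinity ligand of its own. Injury to small vessels and loss of capillaries belong to the disease picture of systemic sclerosis, which BLM-injected skin is used to model.

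Many endothelial promoters are bound by transcription factors of the ETS family, which recognise a GGAA core. Promoter sequences were available for 7 of the 10 genes, in 9 windows, from RefSeq on the build GRCm38.p6. The 250 bases before the start of the 2 VEGF receptor genes and the 2 angiopoietin receptor genes are shown because these 4 receptors are the signalling members of the set. Capitals mark each GGAAG on either strand, CTTCC being its complement read on the printed strand.
Kdr (chr5:75978456-75978705, minus strand): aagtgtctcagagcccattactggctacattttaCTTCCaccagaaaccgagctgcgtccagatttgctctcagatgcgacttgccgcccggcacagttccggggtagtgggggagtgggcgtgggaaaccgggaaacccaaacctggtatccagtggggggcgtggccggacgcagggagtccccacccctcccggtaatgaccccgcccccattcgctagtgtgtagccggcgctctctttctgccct
Flt1 (chr5:147726012-147726261, minus strand): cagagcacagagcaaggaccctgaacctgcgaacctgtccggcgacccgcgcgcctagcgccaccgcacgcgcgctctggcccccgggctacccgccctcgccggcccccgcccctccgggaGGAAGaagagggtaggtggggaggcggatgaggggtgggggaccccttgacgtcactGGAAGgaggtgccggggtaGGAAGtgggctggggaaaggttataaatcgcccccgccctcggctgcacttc
Tek (chr4:94739039-94739288, plus strand): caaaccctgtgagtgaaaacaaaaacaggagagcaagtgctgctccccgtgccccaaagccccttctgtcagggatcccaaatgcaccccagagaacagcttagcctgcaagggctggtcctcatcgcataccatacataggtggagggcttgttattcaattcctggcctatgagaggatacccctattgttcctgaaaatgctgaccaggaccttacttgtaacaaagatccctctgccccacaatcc
Tie1 (chr4:118489850-118490099, minus strand): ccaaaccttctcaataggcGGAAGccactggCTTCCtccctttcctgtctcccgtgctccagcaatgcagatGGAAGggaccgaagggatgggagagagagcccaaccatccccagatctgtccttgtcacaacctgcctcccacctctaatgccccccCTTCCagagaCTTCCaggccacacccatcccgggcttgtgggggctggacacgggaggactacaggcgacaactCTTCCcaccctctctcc
The Tie1 window held 6 matches to GGAAG and the Tek window 0, and the Flt1 window held 3 against 1 for Kdr. The shorter GGAA core was not counted, and the Tek and Kdr windows hold copies of it outside the capitals. Of the 9 windows of the 10 genes, 6 held GGAAG, and of all 32851 promoter windows 64.1% did. At least 2 copies were in 5 of the 9 windows and in 29.4% of all windows, and the motif with a further A before it was in 5 of the 9 and in 29.5% of all, each such match being also a match of the shorter motif. The TATA box motif, TATAAA on either strand, was in 1 of the 9 windows, that of Flt1, and in 12.4% of all. A match describes the letters only, and binding was not measured.

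The values are FPKM, fragments per kilobase of transcript scaled to the number of fragments in the library, and they sum to between 448544 and 462251 in a library. From the smallest steps between the values of weakly expressed genes, each worth 1 fragment, depths of 12800000 to 17400000 fragments per library were estimated, the lowest in KO replicate 2. The targeted gene, Gsdmd, was at 14.0 and 18.2 FPKM in WT skin, and at 3.53 and 2.26 FPKM in KO skin, so its transcript was lower but not absent. KO replicate 2 stood apart from the rest: on the first principal component of the tested genes, which held 74.1% of the variance, its score was 75.4, beside 6.17 for KO replicate 1 and scores of -27.7 and -53.9 for WT. It was also the only library with values above 0 for Y-linked genes, 4 of 15 with a sum of 1.78 FPKM, although the mice are labelled female. KO replicate 1 held far more hair follicle transcripts than the others, with a sum of 355 FPKM over 10 genes (9 keratin genes and Tchh) against 0.906 to 11.1 FPKM. Results are therefore given with and without KO replicate 2.

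Pecam1, Cdh5 and Cldn5 encode proteins of the contacts between endothelial cells. Pecam1 (CD31), an adhesion molecule of the immunoglobulin family, lies on chromosome 11 of the mouse build mm9 from 106515527 to 106576595, and its longest annotated transcript has 16 exons. Its level was 28.9 and 35.6 FPKM in WT replicates 1 and 2, 42.5 FPKM in KO replicate 1 and 3.87 FPKM in KO replicate 2. The highest and the lowest level of Pecam1 were thus both found in KO mice. Cdh5, which encodes VE-cadherin, the adhesion protein of endothelial adherens junctions (chromosome 8, 106625525 to 106668402, 12 exons), stood at 15.1 and 26.4 FPKM in the WT pair, at 18.4 FPKM in the first KO library and at 1.63 FPKM in KO replicate 2. Cldn5, which encodes claudin 5, the main tight junction protein of endothelium, is a gene of 1 exon on chromosome 16 (18776940 to 18778355). It had 8.67 and 14.0 FPKM in the WT pair, 9.95 FPKM in KO replicate 1 and 1.79 FPKM in KO replicate 2. For both Cdh5 and Cldn5, KO replicate 1 lay between the WT libraries and KO replicate 2 far below them.

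The VEGF receptors were, with Tek, the lowest of the set per length of transcript. Kdr (chromosome 5, 76329299 to 76374453, 30 exons) had 3.08 and 6.04 FPKM in the WT pair, 4.02 FPKM in KO replicate 1 and 0.207 FPKM in KO replicate 2. Flt1 (chromosome 5, 148373772 to 148537564, 30 exons) had 2.71 and 2.58 FPKM in the WT pair, 3.72 FPKM in KO replicate 1 and 0.380 FPKM in KO replicate 2. The receptors differed in the upper part of their range, where Flt1 was nearly equal in the WT libraries and highest in KO replicate 1, and Kdr was highest in WT replicate 2. Flt1 also makes a secreted form from a shorter transcript, and a single value per gene does not separate the forms. On the longest annotated transcript, the Kdr value in KO replicate 2 corresponds to an estimated 15.7 fragments and the Flt1 value to 33.5, so these low values rest on few fragments.

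The angiopoietin receptors showed the same split. Tek (chromosome 4, 94405980 to 94541667, 23 exons) was at 3.30 and 3.80 FPKM in the WT pair, at 4.90 FPKM in the first KO library and at 0.484 FPKM in the second. Tie1 (chromosome 4, 118143796 to 118162454, 23 exons) was at 6.56 and 13.0 FPKM in the WT pair, at 9.46 FPKM in the first KO library and at 0.809 FPKM in the second. Tek, like Flt1, had its highest level in KO replicate 1, and Tie1, like Kdr, had its highest level in WT replicate 2. Each of these rests on the value of a single library.

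The remaining genes encode a surface mucin and a pair of secreted proteins. Emcn, which encodes endomucin, a sialomucin of capillaries and veins (chromosome 3, 137004042 to 137094033, 12 exons), had 9.79 and 13.2 FPKM in the WT pair, 14.1 FPKM in KO replicate 1 and 1.03 FPKM in KO replicate 2. Vwf encodes von Willebrand factor, which tethers platelets and is stored in endothelial Weibel-Palade bodies (chromosome 6, 125502966 to 125636697, 52 exons). Its level was 7.49 and 13.1 FPKM in the WT pair, 9.12 FPKM in KO replicate 1 and 0.659 FPKM in KO replicate 2. Both genes had under 10% of the KO replicate 1 level in KO replicate 2. Egfl7, which encodes a secreted protein of the vessel wall (chromosome 2, 26436576 to 26448202, 10 exons), had 29.6 and 54.7 FPKM in the WT pair, 36.2 FPKM in KO replicate 1 and 9.52 FPKM in KO replicate 2. Its exons overlap those of Agpat2 on the opposite strand and of Gm20532 and the microRNA gene Mir126 on its own strand, and use of the strand in counting is not given in the sources used here. Agpat2, an enzyme of lipid synthesis, had 49.5 and 255 FPKM in WT skin, beside 52.3 (KO replicate 1) and 57.8 FPKM (KO replicate 2), so it was not low in KO replicate 2. Its part in the Egfl7 values was not tested.

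**Figure D1:**
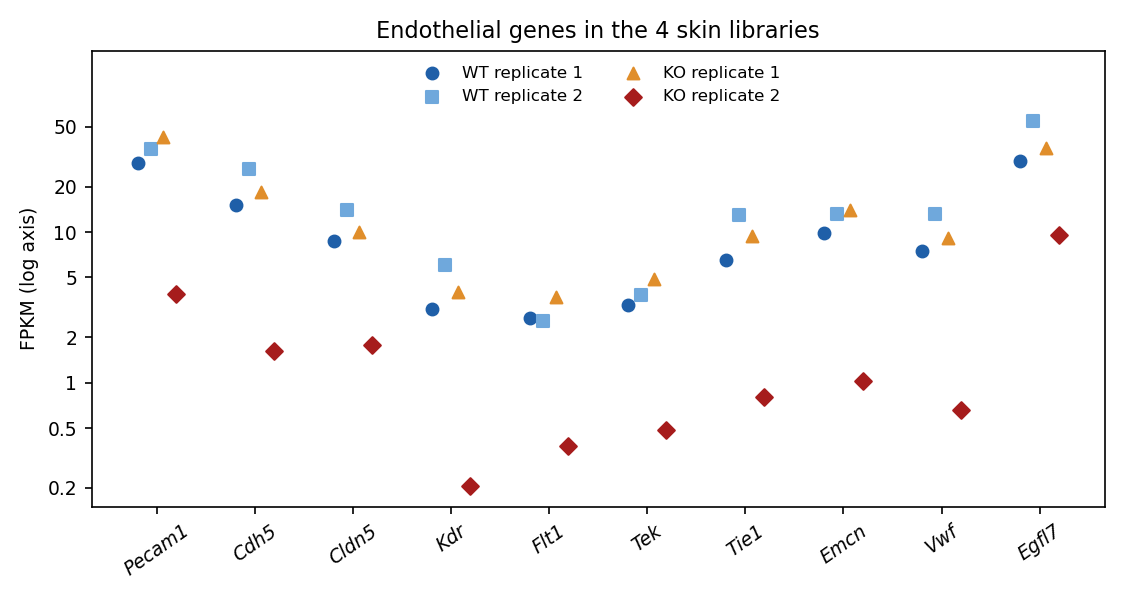
Level of each of the 10 endothelial genes in the 4 skin libraries (FPKM, log axis, 1 point per library, with circles and squares for WT and triangles and diamonds for KO). KO replicate 2 is the lowest point of every gene, from 0.207 FPKM for Kdr to 9.52 FPKM for Egfl7, and KO replicate 1 is between the WT points in 6 genes and above them in 4.

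In 10 of the 10 genes KO replicate 2 was the lowest of the 4 libraries, which held for 33.3% of the 13027 genes tested, while WT replicate 1 was lowest in 14.9%, WT replicate 2 in 42.0% and KO replicate 1 in 9.83%. KO replicate 2 was below both WT libraries in 10 of the 10, against 37.0% of all genes. KO replicate 1 was above both WT libraries for Pecam1, Flt1, Tek and Emcn, between them for the other 6, and below both for 0 of the 10. Among all tested genes, KO replicate 1 was above both WT libraries in 46.5%, between them in 26.9% and below both in 26.6%. As a result, the WT and KO values overlapped for every gene of the set: 0 of 10 had groups that did not overlap, against 55.8% of all genes tested, 35.3% with KO higher and 20.5% with KO lower. The 4 genes whose highest level was in KO replicate 1 were also those with the smallest ratio between the WT libraries. Both traits depend on the value of WT replicate 2, so they are not separate observations. WT replicate 2 over WT replicate 1 was 0.953 for Flt1, 1.15 for Tek, 1.23 for Pecam1 and 1.35 for Emcn, and it ran from 1.61 for Cldn5 to 1.97 for Tie1 in the other 6. WT replicate 2 was above WT replicate 1 in 9 of the 10 genes, and in 39.2% of all tested genes. The adipocyte list moved the same way, with WT replicate 2 above WT replicate 1 in 8 of 8 genes and sums of 2170 and 5920 FPKM, and its part in the difference between the WT libraries was not tested.

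The gap between the KO libraries was not the same for each gene. KO replicate 2 held a median of 8.99% of the KO replicate 1 level, where the median over all genes tested was 102%. Kdr kept least, with 5.14%, followed by Vwf with 7.22% and Emcn with 7.30%. Tie1, Cdh5, Pecam1, Tek and Flt1 lay between 8.55% and 10.2%. Cldn5 kept 18.0% and Egfl7 26.3%, so the tight junction gene and this secreted protein were the least low. The part of the overlapping gene Agpat2 in the Egfl7 values was not tested. The Kdr value in KO replicate 2 rests on an estimated 15.7 fragments on the longest transcript. KO replicate 2 was under 50% of KO replicate 1 in 10 of the 10 genes, against 14.4% of all genes tested, and under 25% in 9 of the 10, against 6.58%.

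Tested over all genes with limma on log2(FPKM + 1), with Benjamini-Hochberg adjustment, 0 of the 10 genes passed an adjusted p under 0.05 with an absolute log2 fold change above 1, and 0.0% of all 13027 genes did. Without adjustment, 0 of the 10 passed both limits, against 10.3% of all genes (6.16% higher and 4.14% lower in KO). At any fold change, an unadjusted p under 0.05 was reached by 0 of the 10 and by 17.1% of all genes. The log2 fold changes of KO over WT ran from -1.56 for Cdh5 to -0.51 for Flt1, with a median of -1.14, beside a median of 0.11 over all genes tested. Their standard errors were between 0.60 and 1.02, and their adjusted p-values by limma between 0.419 and 0.651. For Cdh5 the log2 fold change of -1.56 had a standard error of 0.96 (adjusted p = 0.422 by limma). Pecam1 had a log2 fold change of -1.18 with the widest standard error of the set, 1.02 (adjusted p = 0.541 by limma). For 1 gene alone, the smallest p that a two-sided exact permutation test of 2 against 2 libraries allows is 0.333.

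Without KO replicate 2, when the single KO library was assumed to vary like the WT libraries, the log2 fold changes ran from -0.15 for Egfl7 to 0.39 for Pecam1, and 5 of the 10 were below 0. The direction turned for Pecam1, Tek, Flt1, Emcn and Tie1, whose values became 0.39, 0.38, 0.37, 0.29 and 0.03. Their median was then -0.03 beside 0.10 for all genes, and 0 of the 10 were called (adjusted p between 0.784 and 0.994 by limma), against 0.126% of all genes called higher and 0.118% called lower. Without KO replicate 1, the log2 fold changes ran from -3.00 for Cdh5 to -1.40 for Flt1, and 10 of the 10 genes passed the threshold (adjusted p between 0.0028 and 0.0258 by limma). In that fit 9.26% of the 12618 genes tested were called lower and 5.96% higher in KO, and it compares a single library with the WT pair. The size of the genotype difference in these genes thus depended on which KO library was kept, and in 5 of the 10 so did its direction.

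**Figure D2:**
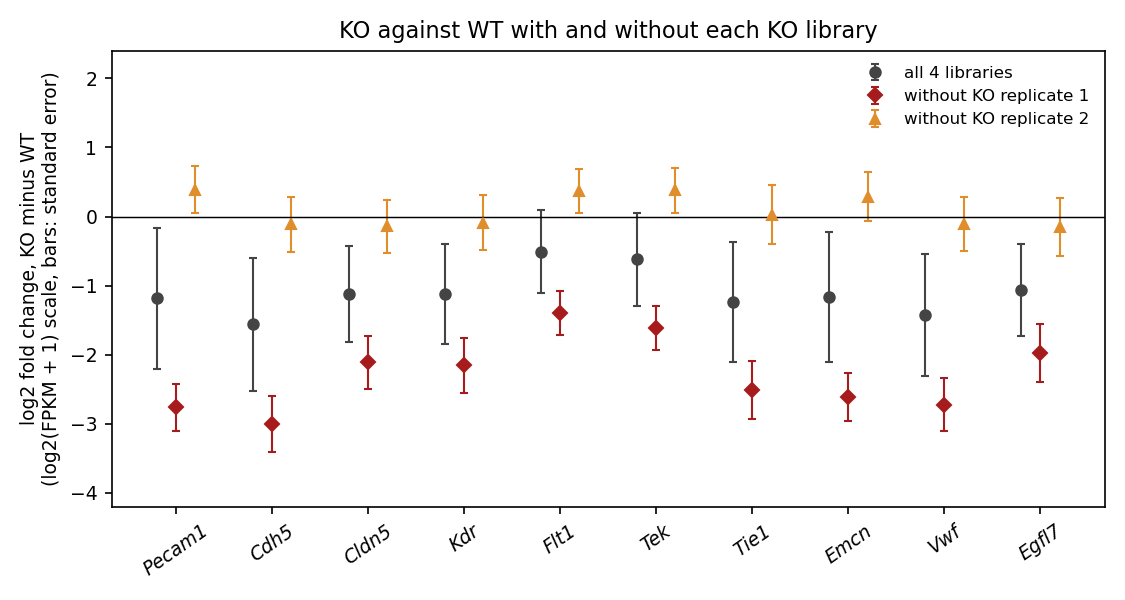
Log2 fold change of KO over WT for each endothelial gene on the log2(FPKM + 1) scale, with bars of 1 standard error, from the fit with all 4 libraries (circles), without KO replicate 1 (diamonds) and without KO replicate 2 (triangles). The circles lie between -1.56 and -0.51, the diamonds between -3.00 and -1.40, and the triangles on both sides of 0, between -0.15 and 0.39.

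Within each library the order of the genes was largely kept. By the WT mean the order was Egfl7 (42.2 FPKM), Pecam1 (32.2), Cdh5 (20.7), Emcn (11.5), Cldn5 (11.3), Vwf (10.3), Tie1 (9.76), Kdr (4.56), Tek (3.55) and Flt1 (2.65). Egfl7 and Pecam1 overlapped in the WT libraries, as did the neighbours from Emcn to Tie1, and Kdr with Tek. Pecam1 and Cdh5, Cdh5 and Emcn, Tie1 and Kdr, and Tek and Flt1 did not overlap. In KO replicate 2 the order moved at a few places, where Cldn5 held place 3, after place 4 or 5 in the other libraries, and Kdr held place 10, after place 8 or 9. The summed level of the 10 genes was 115 and 182 FPKM in the WT pair, 152 FPKM in KO replicate 1 and 20.4 FPKM in KO replicate 2. Egfl7 made up 23.8% to 30.0% of this sum in the other 3 libraries and 46.7% in KO replicate 2. Kdr made up 2.64% to 3.31% of it in those 3 and 1.01% in KO replicate 2, and Vwf 5.99% to 7.18% and 3.23%. Whether Agpat2 adds to the Egfl7 share was not tested. These shares are the same under any scaling of the libraries.

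**Figure D3:**
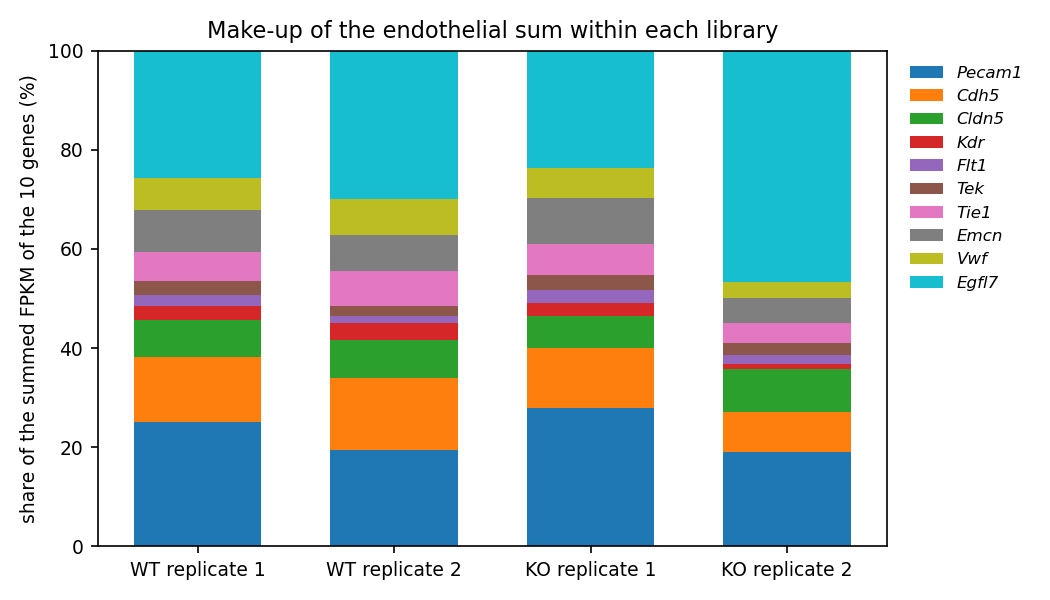
Share of each of the 10 endothelial genes in their summed FPKM within each library (percent, stacked bars from 0 to 100, 1 bar per library). The Egfl7 share is 46.7% in KO replicate 2 and at most 30.0% in the other libraries.

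Further genes of endothelial cells, grouped by function, were set beside the 10. Of 16 further pan-endothelial genes, 16 were tested, 0 passed the threshold by limma in either direction, and KO replicate 2 was lowest in 15. The median of their log2 fold changes was -0.85 with all libraries and 0.14 once KO replicate 2 was left out. Plvap, a protein of the diaphragms of fenestrated endothelium, showed the widest gap, with 52.5 and 70.3 FPKM in the WT pair, 103 FPKM in KO replicate 1 and 3.33 FPKM in KO replicate 2. Eng, a co-receptor for the TGF-beta family on endothelium, had 15.5 and 24.9 FPKM in WT skin, beside 19.8 (KO replicate 1) and 2.73 FPKM (KO replicate 2). The exception was Tspan18, a tetraspanin, with 1.46 and 7.49 FPKM in WT skin, beside 2.22 and 2.19 FPKM in KO skin. Cd93, a lectin-like receptor of endothelium and myeloid cells, was the gene of this list whose groups did not overlap, with 9.26 and 10.1 FPKM in WT skin, beside 6.79 and 1.03 FPKM in KO skin (log2 fold change -1.42, adjusted p = 0.331 by limma, and -0.46 without KO replicate 2). The mean log2(FPKM + 1) of the 10 genes exceeded that of the 16 by 0.04 and 0.13 in WT and by 0.06 in KO replicate 1, and lay 0.28 under it in KO replicate 2, a difference written as -0.28.

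The ligands of these receptors varied in how much of their level KO replicate 2 kept. Of 7 VEGF ligands and co-receptors, 6 were tested and 0 were called in either direction. Their median log2 fold change was -0.22 with all libraries and -0.04 without KO replicate 2. Vegfa, the ligand of Kdr and Flt1, had 41.4 and 52.0 FPKM in the WT pair, 49.8 FPKM in KO replicate 1 and 39.4 FPKM in KO replicate 2. KO replicate 2 thus kept 79.1% of the KO replicate 1 level of Vegfa and 5.14% of that of Kdr. Vegfb kept 96.8%, Vegfd 106% and Pgf 82.9%, and Nrp2 kept 63.8%. Vegfc, the ligand mainly of the lymphatic VEGF receptor, was too low to be tested and kept 10.3%, with 0.857 FPKM in KO replicate 1 and 0.088 FPKM in KO replicate 2. Nrp1, a VEGF co-receptor of endothelium and other stromal cells, kept 18.5%, with 9.49 and 9.30 FPKM in WT skin, beside 8.21 and 1.52 FPKM in KO skin. Of 5 genes of the angiopoietin axis, 4 were tested and 0 were called. Angpt1, the activating ligand of Tek, had 2.49 and 1.97 FPKM in WT skin, beside 1.93 and 1.53 FPKM in KO skin. Angpt2, the antagonist released by endothelium itself, had 1.81 and 2.74 FPKM in WT skin, beside 1.51 and 0.476 FPKM in KO skin. Angpt4, a further ligand of Tek, was under the filter, with at most 0.796 FPKM, and was listed at 0 in KO replicate 2. Ptprb, the phosphatase that restrains Tek signalling on endothelium, had 3.61 and 3.56 FPKM in WT skin, beside 4.03 and 0.423 FPKM in KO skin, a pattern close to that of Tek.

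Of 11 transcription factors of endothelial cells, 10 were tested and 0 were called by limma over all genes, with a median log2 fold change of -0.83 and of -0.08 without KO replicate 2. The ETS factors Erg and Fli1 had 3.78 and 3.70 FPKM in KO replicate 1 and 0.856 and 0.441 FPKM in KO replicate 2, where WT skin had 3.90 and 4.59 FPKM of Erg and 4.57 and 4.28 FPKM of Fli1. Klf2, a factor induced by blood flow, had 34.0 and 50.9 FPKM in the WT pair, 23.3 FPKM in KO replicate 1 and 5.09 FPKM in KO replicate 2. Klf2 was lower in either KO library than in either WT library (log2 fold change -1.81, standard error 0.69, adjusted p = 0.286 by limma), and its value without KO replicate 2 was -0.81. Lyl1, a factor shared with blood cells, had 9.39 and 15.6 FPKM in WT skin, beside 5.15 and 1.53 FPKM in KO skin (log2 fold change -1.74, adjusted p = 0.248 by limma, and -1.09 without KO replicate 2). Sox7 ran the other way, with 4.38 and 3.45 FPKM in WT skin, beside 8.09 and 12.7 FPKM in KO skin (log2 fold change 1.19, adjusted p = 0.248 by limma, and 0.89 without KO replicate 2). Sox7 was the 1 tested gene of this list in which KO replicate 2 was not the lowest library.

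Genes of vessel segments varied more. Among 8 venous and activation genes, 8 tested and 0 called, KO replicate 2 was the lowest in 7. The adhesion molecules of activated venules Selp and Sele had 0.292 and 0.108 FPKM in KO replicate 2, against 7.57 and 3.22 FPKM in KO replicate 1. Icam1, which many cell types express, had 17.9 and 18.7 FPKM in WT skin, beside 15.7 and 12.2 FPKM in KO skin. Among 8 capillary genes, 8 tested and 0 called, KO replicate 2 was the lowest in 6, and the median kept of the KO replicate 1 level was 21.5%. Gpihbp1, the anchor of lipoprotein lipase on capillary endothelium, had 24.7 and 70.0 FPKM in WT skin, beside 26.7 and 3.31 FPKM in KO skin. Aplnr, the apelin receptor, had 5.59 and 8.81 FPKM in WT skin, beside 11.1 and 0.930 FPKM in KO skin. Rgcc and Apln, the genes of this list in which KO replicate 2 was not the lowest, had 66.6 and 1.54 FPKM in KO replicate 1 and 110 and 2.08 FPKM in KO replicate 2. Among 9 arterial and Notch pathway genes, 9 tested and 0 called, KO replicate 2 was the lowest in 5. The gap junction genes Gja4 and Gja5 had 2.65 and 0.524 FPKM in KO replicate 2, against 5.47 and 2.73 FPKM in KO replicate 1. Efnb2, Hey1, Jag1 and Notch1 ran the other way, with 344%, 154%, 135% and 128% of the KO replicate 1 level in KO replicate 2. Of 7 lymphatic genes, 3 were tested and 0 called, and KO replicate 2 was the lowest in these 3. Prox1, the defining factor of lymphatic endothelium, was under the filter with 0.0922 to 0.198 FPKM, while Pdpn, which other cells also express, had 28.8 and 23.1 FPKM in WT skin, beside 19.0 and 5.21 FPKM in KO skin.

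The 5 genes outside the set whose profile over the 4 libraries lay nearest to the mean profile of the 10 were Ctla2a, Eng, Sox18, Sparc and Clec10a, out of 8754 genes with a mean of at least 5 FPKM. Likeness was the Euclidean distance between centred log2(FPKM + 1) values, which was 0.126 for Ctla2a, 0.167 for Eng, 0.178 for Sox18, 0.193 for Sparc and 0.204 for Clec10a. The distance of the 10 genes themselves to their mean ran from 0.280 for Kdr to 0.835 for Flt1. Eng and Sox18 are endothelial genes, Sparc is a matrix protein gene of fibroblasts and endothelium, and Clec10a is a lectin gene of macrophages and dendritic cells. With 4 libraries many genes share such a profile.

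Markers of other cells of the dermis and the fat were low in KO replicate 2 along with the endothelial genes. The fibroblast and macrophage lists differed from the endothelial genes in the other libraries. In KO replicate 2 the fibroblast list was lowest in 9 of 10 genes, with a summed level of 58.7 FPKM against 291 to 625 FPKM in the other libraries. KO replicate 1 was above both WT libraries in 9 of these 10 genes, WT replicate 2 was above WT replicate 1 in 1 of 10, and their median log2 fold change without KO replicate 2 was 0.79. The adipocyte list was lowest there in 7 of 8 genes, with 200 FPKM against 2170 to 5920 FPKM. The macrophage list was lowest there in 10 of 10 genes, with 90.7 FPKM against 871 to 2100 FPKM, and KO replicate 1 was below both WT libraries in 8 of its 10 genes. No defining marker of these 3 lists was at 0 in any library. The keratinocyte list was lowest in KO replicate 2 in 3 of 10 genes, and its sum of 5950 FPKM there lay within the range of 3700 to 11100 FPKM of the other libraries. The skeletal muscle list, from the muscle sheet under the skin, was lowest in KO replicate 2 in 3 of 8 genes, with a sum of 15700 FPKM against 14800 to 24400 FPKM. The part of these other cell types in the endothelial values was not tested.

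Mural cells are the pericytes and smooth muscle that wrap vessels. KO replicate 2 held a median of 44.5% of the KO replicate 1 level over 11 mural genes, beside 8.99% for the 10 endothelial genes. The mural genes ranged from 18.4% for Pdgfrb and 19.4% for Rgs5, over 27.9% for Kcnj8 and 51.6% for Cspg4, to 75.1% for Abcc9 and 90.0% for Notch3, and the range of the endothelial genes overlapped the lower end of this range. Several genes of this list, such as Des, which kept 69.0%, are also expressed in skeletal muscle. Within a library, the mean log2(FPKM + 1) of the endothelial genes minus that of the mural genes was -1.05 and -0.74 in WT, -0.79 in KO replicate 1 and -2.07 in KO replicate 2. Against the fibroblast list the same difference was -1.54 and -0.52 in WT and -1.83 and -1.06 in KO replicates 1 and 2, so KO replicate 2 lay between the WT libraries. Against the keratinocyte list it was -4.26 and -2.96 in WT and -4.98 and -6.35 in KO. Relative to the mural and keratinocyte lists the endothelial genes were lowest in KO replicate 2, and relative to the fibroblast list they were lowest in KO replicate 1. The KO minus WT difference was -0.53 relative to the mural list, within the pooled SD of 0.66 (n = 2 per group), -0.42 relative to the fibroblast list (SD 0.64) and -2.05 relative to the keratinocyte list (SD 0.95). Leaving out each library in turn gave -1.18 to 0.11 for the mural, -0.93 to 0.09 for the fibroblast and -2.74 to -1.37 for the keratinocyte difference, so the first 2 changed direction. These differences were not tested, and on this scale low genes such as Kdr count for less.

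**Figure D4:**
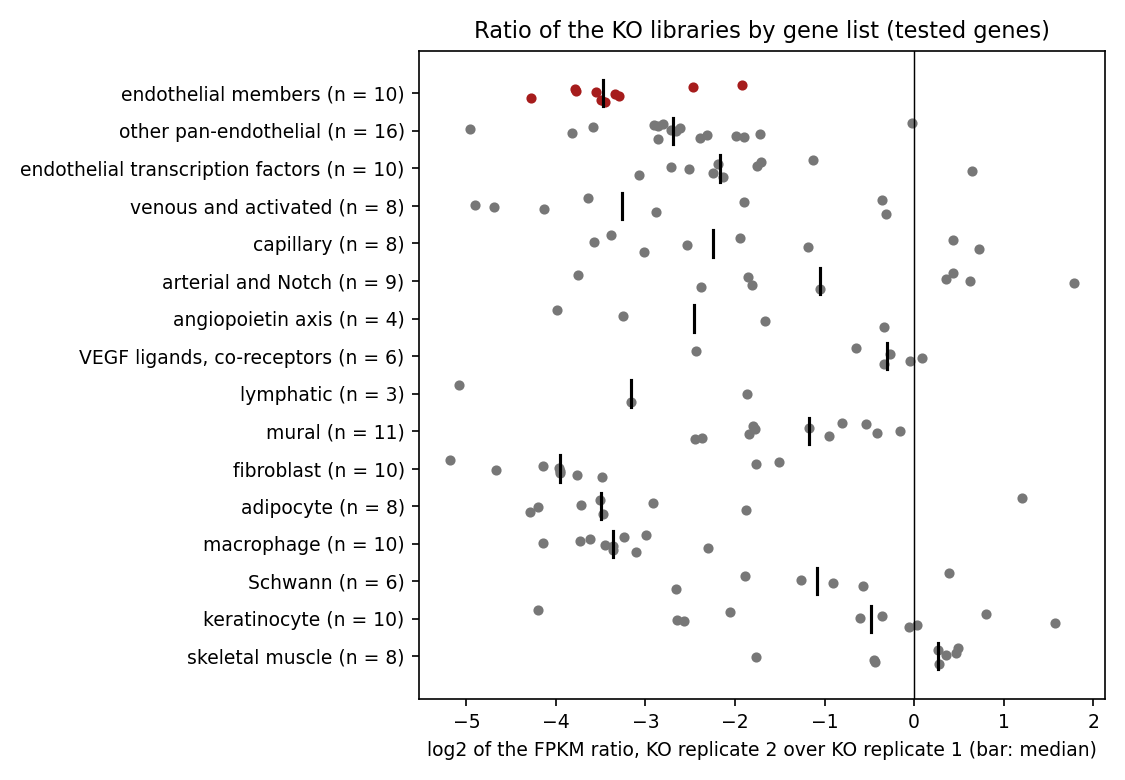
Log2 of the FPKM ratio of KO replicate 2 over KO replicate 1 for each tested gene, 1 row of points per gene list with its number of genes and a bar at the median. The 10 endothelial genes have a median of 8.99% of KO replicate 1, next to 15.5% for other pan-endothelial genes, 6.46% for fibroblast, 44.5% for mural, 81.0% for VEGF ligand and co-receptor, and 120% for skeletal muscle genes.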

How the data were processed

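RNA of whole BLM-treated skin was sequenced (paired-end) in 2 WT and 2 KO libraries. Alignment by the authors was with HISAT2 (version 2.0.1) on mm9, and the submitters' processing notes also name StringTie version 2.0.6. The values deposited are FPKM, despite a name that speaks of counts, since 99.993% of the values above 0 are not whole. The program that made them is not given in the sources used here, and the authors' division by length and depth could not be undone. Groups and replicate numbers come from the labels, and 0 value columns lacked a sample.

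Values were transformed to log2(FPKM + 1), which understates the change of low genes. Genes had to reach 1 FPKM in 2 or more libraries, and 13027 did, all 10 members among them. The 13027 genes were fitted with limma version 3.58.1 (R version 4.3.3, mean-variance trend, genotype only), with Benjamini-Hochberg adjustment. The fit was also run on simulated data, but that outcome is not given here and lends no weight to the p-values. The 10 genes passed the filter through both WT libraries and KO replicate 1. A count model was not used because the table holds no counts. Calls needed an adjusted p under 0.05 and, in either direction, a log2 fold change past 1, the study's threshold. Fragments were estimated from low genes with 1 annotated transcript of at least 2 kb, and no interval was derived from them. Loci were checked against the GENCODE M1 annotation of mm9, where 99.2% of 20310 genes found by symbol overlapped. Starts in the table count from 0 and are given from 1. Promoters are on GRCm38.p6 and were not placed on mm9.

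The members and gene lists were chosen with earlier results of these data known. Named genes are Gsdmd, the members, genes of the lists where a list is described, and the 5 genes nearest in profile. Agpat2 was named after the exon overlap with Egfl7 was found. Same-numbered WT and KO libraries were not treated as pairs. Alternatives were other pseudocounts, filters, scalings and variance models, a replicate block, and leaving out each library. Tables and plots were made with Python version 3.11.15, pandas version 2.3.3 and matplotlib version 3.10.9.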

Additional observations from a re-analysis of the deposited data

How the results depend on the processing

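The call of 0 members past the threshold stayed at 0 under every alternative except leaving out KO replicate 1. Over the fits that leave out each library in turn, the number of genes called ranged from 0 to 1920 (1920 without KO replicate 1 and 31 without KO replicate 2). The members past the adjusted threshold ranged from 0 to 10, those past the unadjusted p and the fold limit from 0 to 10 (10 without KO replicate 1, where 22.9% of all genes passed), and those whose groups do not overlap from 0 to 10 (6 without WT replicate 1, 10 without KO replicate 1 and 4 without KO replicate 2, beside 81.1%, 86.1% and 72.7% of all genes). The members' median log2 fold change ranged from -2.33 without KO replicate 1 to -0.03 without KO replicate 2. The fold change turned direction without KO replicate 2 in 5 genes, and over the left-out libraries it ranged from -2.76 to 0.39 for Pecam1, -1.40 to 0.37 for Flt1, -1.61 to 0.38 for Tek, -2.51 to 0.03 for Tie1 and -2.61 to 0.29 for Emcn. The level relative to the other pan-endothelial genes ranged from -0.37 to -0.02, to the fibroblast genes from -0.93 to 0.09, to the mural genes from -1.18 to 0.11 and to the keratinocyte genes from -2.74 to -1.37. Under the other scalings, pseudocounts and filters the members' median lay between -1.43 and -1.14, and each tested member stayed below 0. Kdr, Flt1 and Tek were not tested under the filter of 5 FPKM. Median-ratio scaling moved the median of all genes from 0.11 to 0.01.

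The deviations of same-numbered libraries correlated at -0.20 over 13027 genes, and the sources used here tie the numbers to no shared animal, litter or day. With the replicate number as a block, 0 members were called, and their adjusted p-values by limma ran from 0.371 to 0.653. With the numbers crossed, an alternative chosen after seeing the data, 1 member passed the unadjusted threshold, beside 11.5% of all genes, and 0 passed the adjusted one. The members rest on few fragments in KO replicate 2. Their estimated fragments there ran from 9.91 to 83.2 on the shortest annotated transcript and from 15.7 to 170 on the longest. The estimated depth of KO replicate 2 was 12800000 fragments, beside 13900000 in KO replicate 1.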

Other observations

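A few genes that endothelial cells share with the epidermis ran against the endothelial set. Efnb2, which encodes the ligand ephrin B2 of arterial endothelium and of hair follicle and epidermal cells, had 4.98 and 2.88 FPKM in WT skin, beside 15.1 (KO replicate 1) and 51.9 FPKM (KO replicate 2) (log2 fold change 2.60, standard error 0.61, adjusted p = 0.248 by limma over all genes). Jag1, a Notch ligand, had 5.14 and 4.58 FPKM in WT skin, beside 15.3 and 20.7 FPKM in KO skin (log2 fold change 1.68, adjusted p = 0.248 by limma). Notch1 had 8.37 and 11.4 FPKM in WT skin, beside 16.4 and 20.9 FPKM in KO skin (log2 fold change 0.85). Their values without KO replicate 2 were 1.74, 1.48 and 0.68. In all 3 genes both KO libraries lay above both WT libraries, as in 35.3% of all genes tested. The epidermal keratin genes Krt5 and Krt14 were also higher in both KO libraries, with 1730 and 1660 FPKM of Krt5 against 764 and 765 FPKM in the WT pair, and 2690 and 2740 FPKM of Krt14 against 1290 and 1210 FPKM. Krt1, Krt10 and Lor, genes of the differentiated epidermal layers, were below both WT libraries in KO replicate 2, at 280, 266 and 155 FPKM, and above both in KO replicate 1, at 1670, 1670 and 2840 FPKM. The Notch4 and Dll4 genes, whose expression is more restricted to endothelium, had 0.462 and 0.403 FPKM in KO replicate 2 against 1.67 and 1.41 FPKM in KO replicate 1. Which cells of the whole skin gave these values was not tested.

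Blood-borne transcripts were recorded as values. The summed level of 6 red cell genes was 133 and 232 FPKM in WT skin, beside 119 (KO replicate 1) and 33.2 FPKM (KO replicate 2). Hba-a2 went from 43.1 to 0.0114 FPKM between the KO libraries while its near-identical copy Hba-a1 had 13.3 and 15.1 FPKM, and single values of such copies are uncertain. Hbb-b1 and Hbb-b2, also close copies, had 46.3 and 16.0 FPKM in KO replicate 1 and 12.8 and 4.59 FPKM in KO replicate 2, and Alas2 had 0.514 and 0.682 FPKM in KO skin. Of 7 platelet genes, 4 were tested, and Itga2b, which encodes the platelet integrin, had 1.16 and 1.14 FPKM in WT skin, beside 1.36 and 1.57 FPKM in KO skin. Ppbp, a platelet chemokine, had 1.34 and 1.96 FPKM in WT skin, beside 0.0803 and 0.606 FPKM in KO skin (log2 fold change -1.0, adjusted p = 0.254 by limma, and -1.28 without KO replicate 2). Treml1, a platelet receptor under the filter, had 0.631 and 0.580 FPKM in WT skin, beside 0.0884 and 0.0954 FPKM in KO skin, and Gp1bb had 6.75 and 3.30 FPKM in WT skin, beside 11.2 and 5.19 FPKM in KO skin. Pf4, a gene of platelets and also of macrophages, had 226 and 219 FPKM in WT skin, beside 64.7 and 9.06 FPKM in KO skin. The summed level of 6 Schwann cell genes was 182 and 151 FPKM in WT skin, beside 207 and 48.2 FPKM in KO skin.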
